A study of Homo sapiens with 9 samples.

Results

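Open chromatin shared by the 2 peak lists labelled SW, and found in neither list labelled NS, was examined in Jurkat cells (clone E6-1), a line derived from a human T cell leukaemia. Peaks of 4 FAIRE-seq lists on the autosomes, X and Y were merged where they overlapped or touched, which gave 40703 regions. Of these, 2547 regions (6.26%) had a peak in the list labelled SW DMSO and in the list labelled SW rottlerin, and no peak in the lists labelled NS DMSO and NS rottlerin. These 2547 regions are called members here. They were selected on measured values, the presence and absence of peaks, so their presence in the SW-labelled lists is no result.

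The labels describe non-stimulated cells (NS), stimulated cells (ST), cells after stimulus withdrawal (SW) and re-stimulated cells (RS), each after pre-treatment with DMSO or with 15 µM rottlerin for 1 h. Stimulation was by 24 ng/mL PMA and 1 µM calcium ionophore for 4 h according to the labels, while the methods of the study give a shorter time. SW cells were then washed and rested without stimulus for 1 day, and NS cells received the pre-treatment alone. The series holds 9 libraries with the total input, peak lists of 4 of them were used, and the other 5 were not analysed here. All cells came from 1 cloned line, and each list rests on 1 library.

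The names of the lists probably do not match the state of the cells. The study's methods describe peaks called on the DMSO samples of all 4 states and merged, whereas the labels of the 4 lists name NS and SW cells after DMSO and after rottlerin. With all contigs included, the merge yielded 40731 regions, of which 28 lay outside the autosomes, X and Y. Both counts are those the methods state for the merged DMSO samples, so the lists labelled SW DMSO, NS rottlerin and SW rottlerin are probably those of ST, SW and RS cells without rottlerin. Which of them belongs to which state is given by neither source. A region without an NS-labelled peak may thus be one without a peak in NS cells and in 1 other state. The lists are therefore called by their labels throughout, as names only, and no difference between them is ascribed to rest or to rottlerin. The labelled cell type was checked against its markers. In each list 8 of 10 T cell genes had a peak within 1 kb of a start site. CD2 had none in any list. Of 10 genes of B cells, myeloid cells, liver and epithelium, KRT5 had such a peak in the SW rottlerin list and the others had none in any list.

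FAIRE, the formaldehyde-assisted isolation of regulatory elements, recovers DNA that is free of nucleosomes, so that a peak marks accessible chromatin such as a promoter or an enhancer. PMA activates protein kinase C and the ionophore raises calcium, and together they stand in for the signals of the T cell receptor. Protein kinase C and MAP kinases lead to AP1, a dimer of JUN and FOS proteins, while calcium activates the phosphatase calcineurin, which sends NFAT proteins to the nucleus. NFAT and AP1 bind side by side at composite elements of T cell genes such as IL2, with a fixed gap between the parts. Rottlerin is a plant compound used as an inhibitor of protein kinase C.

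Of the consensus sequences searched, those most set apart in the members were AP1, alone and joined to NFAT, so 6 regions with them are printed as examples. The first 3 are the highest-scoring members with an NFAT:AP1 composite, with the composite in capitals: GGAAA, then 3 bases, then TGANTCA, where N is any base, read on either strand. The other 3 are high-scoring members with the AP1 sequence TGACTCA, which is in capitals and reads TGAGTCA on the opposite strand. Each line gives the central 200 bp of the region on the plus strand of GRCh37, under the symbol of the nearest protein-coding gene, which need not be its target. The regions lie at chr6:135945662-135945861 (intron, AHI1), chr7:42909092-42909291 (intergenic, C7orf25), chr15:75276256-75276455 (intron, SCAMP5), chr13:99316409-99316608 (upstream of a transcript, SLC15A1), chrX:46184959-46185158 (intron, KRBOX4) and chr10:34338882-34339081 (intergenic, PARD3).
AHI1: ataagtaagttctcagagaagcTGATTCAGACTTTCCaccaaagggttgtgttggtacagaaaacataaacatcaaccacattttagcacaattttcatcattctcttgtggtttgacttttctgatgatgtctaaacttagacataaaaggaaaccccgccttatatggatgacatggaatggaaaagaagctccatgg
C7orf25: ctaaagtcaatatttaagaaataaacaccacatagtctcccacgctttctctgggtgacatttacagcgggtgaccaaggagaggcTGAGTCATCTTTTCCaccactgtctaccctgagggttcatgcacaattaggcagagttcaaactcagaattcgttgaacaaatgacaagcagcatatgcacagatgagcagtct
SCAMP5: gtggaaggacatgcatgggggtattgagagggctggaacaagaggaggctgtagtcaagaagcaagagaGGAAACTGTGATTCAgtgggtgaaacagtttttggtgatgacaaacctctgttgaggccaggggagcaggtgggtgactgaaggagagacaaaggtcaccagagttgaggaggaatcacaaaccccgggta
SLC15A1: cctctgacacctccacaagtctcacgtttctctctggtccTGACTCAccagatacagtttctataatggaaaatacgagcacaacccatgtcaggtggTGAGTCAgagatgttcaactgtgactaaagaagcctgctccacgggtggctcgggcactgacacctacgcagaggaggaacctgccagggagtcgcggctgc
KRBOX4: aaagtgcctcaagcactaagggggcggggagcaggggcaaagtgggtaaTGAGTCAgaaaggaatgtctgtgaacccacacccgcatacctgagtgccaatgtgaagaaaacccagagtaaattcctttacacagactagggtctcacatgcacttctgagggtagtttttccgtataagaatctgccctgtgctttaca
PARD3: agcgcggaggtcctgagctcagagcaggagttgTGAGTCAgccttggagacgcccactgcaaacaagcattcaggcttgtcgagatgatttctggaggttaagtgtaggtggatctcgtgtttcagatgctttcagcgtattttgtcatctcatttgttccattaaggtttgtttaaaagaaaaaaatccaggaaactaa

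The AHI1 region had a score of 140 in the SW DMSO list and 200 in the SW rottlerin list, with 7.27-fold and 8.84-fold enrichment over the total input. Scores here are peak scores of MACS2, the −log10 q-value multiplied by 10 and cut to whole numbers. AHI1 encodes a protein of the primary cilium, and the start site of the gene lay 126 kb away. The C7orf25 region had scores of 109 and 106 and 6.39-fold enrichment in both lists. The SCAMP5 region, near a gene of secretory vesicles, had scores of 77 and 99. All 3 lay outside promoters, and none had an NS-labelled peak within 3 kb: the nearest was 3.94 kb from the SCAMP5 region.

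The SLC15A1 region, named after an intestinal peptide transporter, was the member with the highest lower score of its 2 lists, at 145 and 141. It holds 2 AP1 sites and lies 92040 bp from the nearest NS-labelled peak. The KRBOX4 region had scores of 129 and 146, and 1 of its 2 AP1 sites falls in the printed bases. The PARD3 region, 286 kb from the start of a gene of cell polarity, had scores of 123 and 202. In these 3 regions the fold enrichment was between 6.21 and 8.06.

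Across all members the median score was 39 (10 to 184) in the SW DMSO list and 47 (10 to 237) in the SW rottlerin list. The median fold enrichment was 3.73 (2.32 to 7.80) and 3.94 (2.28 to 10.5). Most members were thus moderate peaks: 26.3% reached the median score of all peaks of the SW DMSO list, which was 54, and 42.6% reached that of the SW rottlerin list, which was 53. The score was higher in the SW rottlerin list in 1582 members (62.1%), higher in the SW DMSO list in 916 (36.0%) and equal in 49. Over the members, which share both libraries, the scores had a Spearman rho of 0.398, and over all 17128 regions with a peak in both SW-labelled lists it was 0.738. These rho values are descriptions only.

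**Figure D1:**
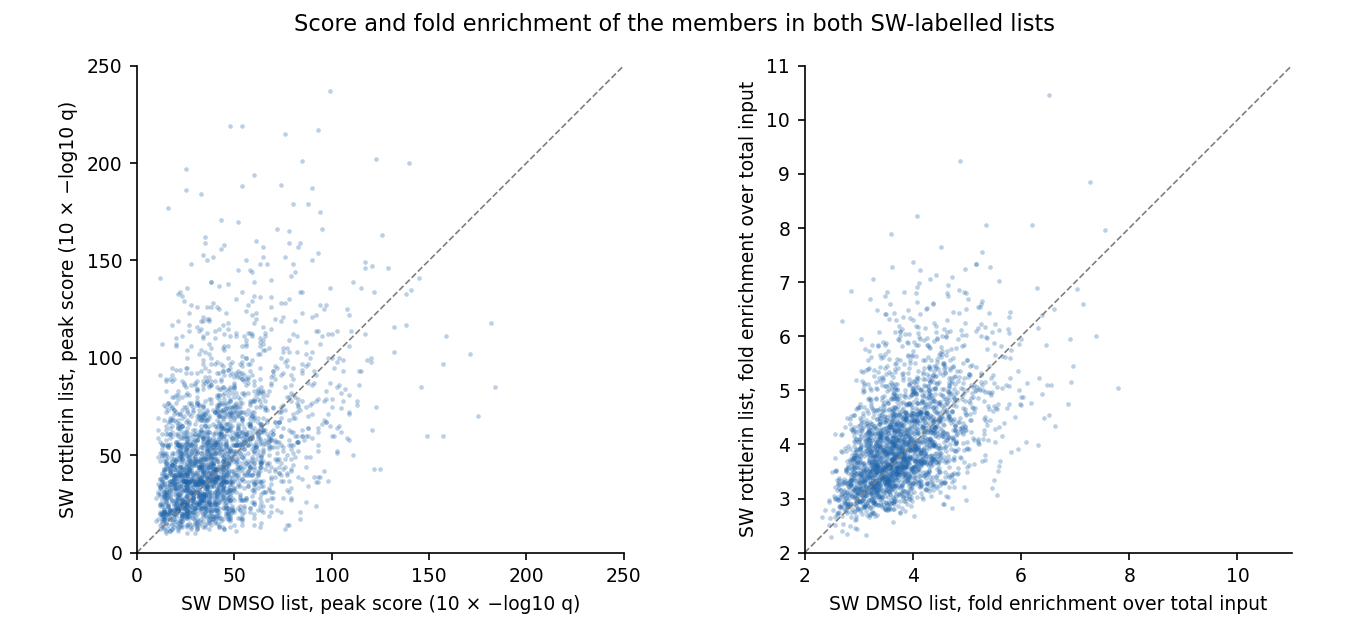
Score (left) and fold enrichment over total input (right) of the 2547 members, 1 point each, in the SW DMSO list (x axis) and the SW rottlerin list (y axis), with a dashed line where the values are equal. Most points lie below a score of 100 in both lists, and 62.1% of the members have the higher score in the SW rottlerin list.

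The peaks of the 2 lists overlapped in every member. The merging of overlapping or touching peaks nearly fixes this in advance, so it is no result. A median of 74.7% of the width of the region was covered in both lists. The median width was 295 bp (165 to 2303). The median distance from a member to the nearest NS-labelled peak was 15920 bp. The rule keeps out regions that overlap or touch such a peak, and the distance was not measured for other regions. It is therefore a description only. The distance was over 1 kb in 95.4% and over 10 kb in 61.6% of the members.

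Members became rarer as peaks grew stronger. Of the regions with a peak in both SW-labelled lists, 36.9% were members where the lower score was under 20, and 0.780% (29 of 3716) where it was 100 or more. A peak list does not give the sequencing depth, so a region without an NS-labelled peak was one not called in those libraries, and closed chromatin cannot be told apart from a signal under the cut-off. At the edge of the rule, 5 members had a lower score of 10, the lowest in any list, and 150 had one under 15. Among the 14581 regions kept out by an NS-labelled peak, the highest NS-labelled score was under 15 in 64 and was 10 in 4.

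The regions that had a peak in exactly 2 of the 4 lists numbered 8311. Members made up 30.6% of them, against 41.3% for the pair of rottlerin-labelled lists, 10.2% for the pair of NS-labelled lists and 3.74% for SW DMSO with NS rottlerin. The remaining pairs, NS DMSO with SW rottlerin and NS DMSO with SW DMSO, had 7.94% and 6.18%. The lists differ in length, from 18977 peaks in the NS DMSO list to 30409 in the SW rottlerin list. The part of length in these shares was not tested. With the 18977 highest-scoring peaks of each list, 1721 regions met the rule.

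Members lay mostly away from gene starts. By mid-point, 62.0% were in introns and 16.4% were intergenic, together 78.4% (95% Wilson interval 76.7 to 79.9, counting error only, as for all intervals here), against 70.0% of all regions. A further 7.38% lay 1 to 10 kb upstream of a transcript, 5.65% in other exons, 3.97% in promoters (up to 1 kb before a start), 2.47% in 5′UTRs and 2.16% in 3′UTRs. Another group with a mostly intronic and intergenic place was that of the SW rottlerin list alone (78.5%), so this place was not particular to the members. The median distance to a protein-coding start was 12935 bp, against 8582 bp in all regions.

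CpG islands were uncommon in the members. Island-like sequence (GC over 50% and an observed to expected CpG ratio over 0.6 in the central 300 bp) was found in 10.0% (8.91 to 11.2) of the members and in 21.0% of all regions. The share was 15.9% in regions found in every list but NS DMSO and 4.15% in regions shared by both NS-labelled lists only. Regions in the SW rottlerin list alone had 10.1% (9.39 to 10.8), so the low share was not particular to the members. The median GC content of the members was 45.7%.

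AP1 sites were more frequent in the members than in any other pattern of lists. TGACTCA was found in the central 300 bp of 860 members, or 33.8% (32.0 to 35.6), against 13.2% of all regions. Regions can be sorted by the lists they have a peak in, which gives 15 patterns, and the members had the highest share of the 15. The neighbouring patterns were the regions in every list but NS DMSO at 29.8% (28.2 to 31.5) and those in the SW DMSO list alone at 27.9% (25.8 to 30.0). The interval of the members did not overlap either of these. Regions in the SW rottlerin list alone had a share of 17.1%, and regions shared by both NS-labelled lists only had 2.96%. In the patterns with a peak in the NS DMSO list the share was 2.67% to 8.63%, and in those without one it was 9.48% to 33.8%. These ranges did not overlap, but the intervals at their edges did (6.93 to 10.7 and 8.54 to 10.5).

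**Figure D2:**
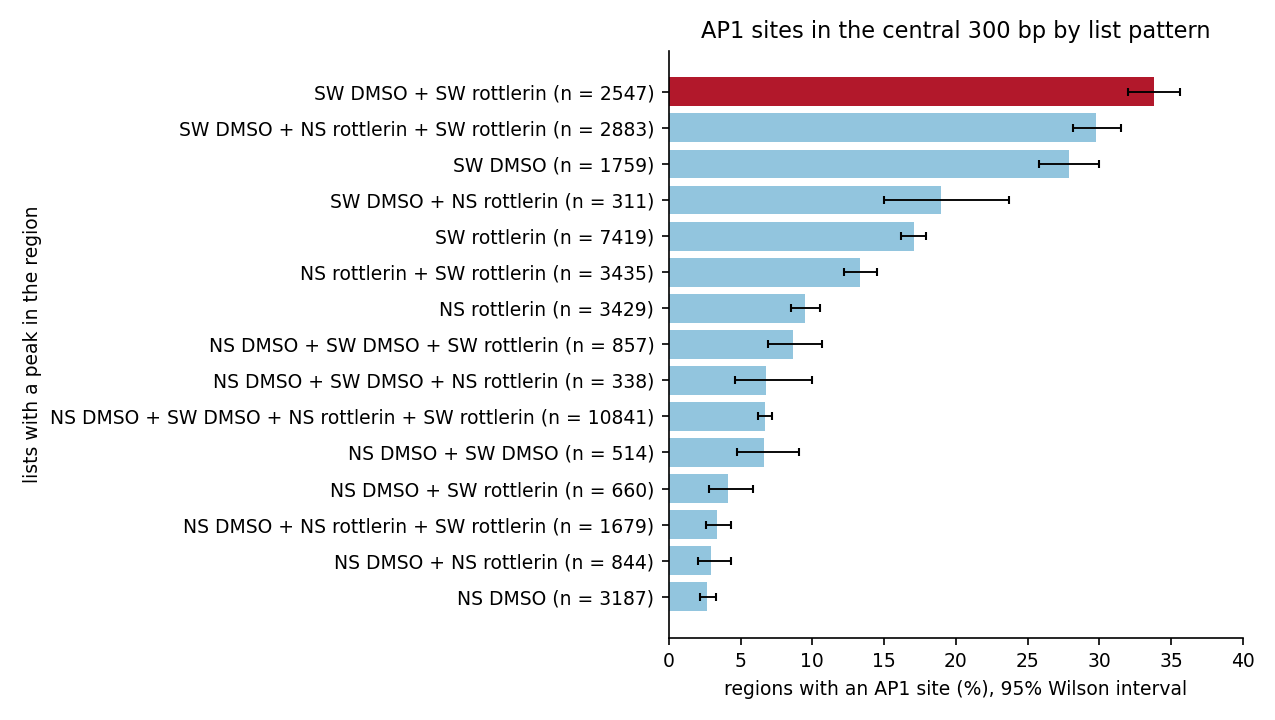
Share of regions with an AP1 site in the central 300 bp (x axis, percent) for each of the 15 combinations of lists with a peak (y axis, number of regions in brackets), with bars for the share and whiskers for the 95% Wilson interval. The members (dark bar) stand highest at 33.8%, and all patterns with a peak in the NS DMSO list lie at 8.63% or lower.

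The AP1 shares were also set side by side within bands of GC content. In sequence with a GC content under 40%, 29.5% of the members had an AP1 site, against 12.9% of all regions and 5.57% of the regions with a peak in the NS DMSO list. At 40 to 45% GC the shares were 39.6%, 17.3% and 7.51%, and at 55% or more they were 25.2%, 6.42% and 3.05%. The members had the highest share of these groups in each GC band searched.

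Stronger members had AP1 sites more often. When the members were ranked by the lower of their 2 scores and cut into 4 groups of like size, the share was 28.6% (25.2 to 32.2) in the lowest group, then 31.9%, 35.2% and 39.4% (35.7 to 43.3) in the highest. In the 100 members with the highest lower score, 48 had an AP1 site. The median GC content moved with the groups, from 44.7% in the group above the lowest to 48.7% in the highest, and its part in the result was not tested. ETS sites, by contrast, were at 18.1% in the lowest group and 18.4% in the highest.

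The sites sat at the middle of the members. Within 100 bp of the mid-point there were 89.0 AP1 sites per 1000 members in each 50 bp, against 9.43 beyond 300 bp, a ratio of 9.44, and in all regions that ratio was 3.63. One site was present in 701 members, 2 sites in 147 and 3 or more in 12. The most, 5 sites, were in an intronic member at chr4:72978332-72978569 near NPFFR2, which had low scores of 41 and 21 and was singled out after its values were seen.

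An NFAT sequence, TGGAAA or AGGAAA, was found in 62.7% (60.8 to 64.5) of the members. It is short and common, with a share of 56.1% in all regions, and it was most frequent in the SW rottlerin list alone (69.4%). A member with an AP1 site held an NFAT sequence in 62.4% of cases and one without an AP1 site in 62.8%, shares that lie within each other's intervals.

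The composite of both was rarer and more unevenly spread. The NFAT:AP1 composite, with GGAAA before TGANTCA and 3 bases between, was found in 31 members, or 1.22% (0.859 to 1.72), against 103 (0.253%) of all regions. The members had the highest share of the 15 patterns. Regions in the SW rottlerin list alone had 47 composites (0.634%), and those in every list but NS DMSO had 11 (0.382%). In the members, gaps of 0 to 15 bases other than 3 were each seen in 4 to 13 regions (median 8.00), and with TGANTCA first each gap was seen in 0 to 9. No other gap searched came near the 31 members of the gap of 3 bases. The next, at 13 members, was a gap of 0 bases, which gives the letters of an element bound by IRF and BATF proteins. In all regions the gaps of 0 and 3 bases were seen in 105 and 103 regions, and each other gap in at most 53. The composite may overlap an AP1 or an NFAT sequence counted above.

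**Figure D3:**
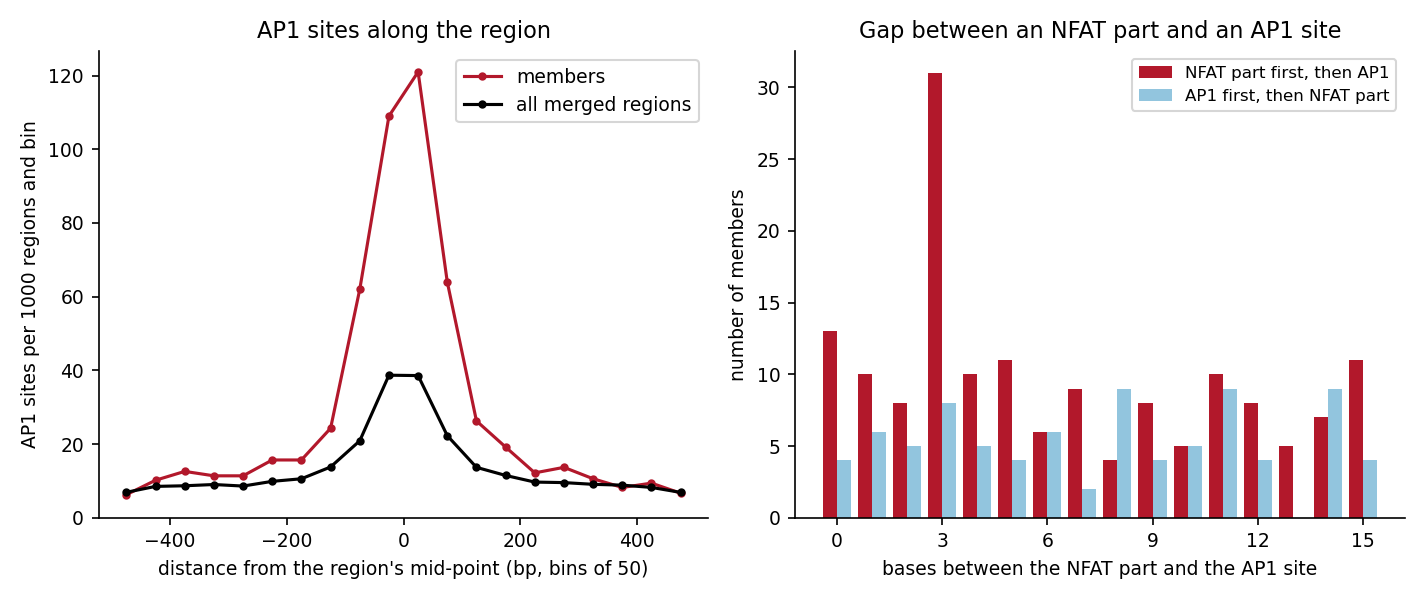
Left, AP1 sites per 1000 regions in each 50 bp (y axis) against the distance from the mid-point in bp (x axis) for the members and for all merged regions. Right, number of members (y axis) by the number of bases between the NFAT part and the AP1 site (x axis) in both orders. The members peak at 121 sites per 1000 beside the mid-point, and the gap of 3 bases with the NFAT part first reaches 31 members where the other gaps of that order reach 13 at most.

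The 8 composite members with the highest lower score were those near AHI1, C7orf25, SCAMP5, MDFIC, AHDC1, B3GNT2, HS3ST4 and RBFOX3. The MDFIC member, near a gene of a MyoD inhibitor domain protein, had scores of 75 and 92 and lay 808 kb from the nearest NS-labelled peak. The member near B3GNT2, which extends sugar chains on surface proteins, was the widest of all members at 2303 bp, with scores of 65 and 157. The HS3ST4 and RBFOX3 members were stronger in the SW DMSO list, with fold enrichments of 6.56 and 5.09 near HS3ST4 and with scores of 100 and 60 near RBFOX3. The list that scored higher thus differed among composite members.

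Other sequences were less set apart. The NF-κB sequence GGGANTTNC was in 5.38% (4.57 to 6.32) of the members, against 3.84% of all regions. This was the highest of the 15 patterns, but regions in every list but NS DMSO had 4.96% (4.23 to 5.81), an interval that overlaps that of the members. In the highest of the 4 score groups it reached 7.85%, against 4.08% (2.80 to 5.91) in the lowest. The CArG box of the serum response factor was in 2.08% (1.59 to 2.71), an interval that holds the 1.64% of all regions. The sequence AAAGGTCA of the NR4A nuclear receptors was in 2.24%, behind the 3.11% of the SW rottlerin list alone.

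ETS, GATA and CTCF sequences were less frequent in the members than in all regions. The ETS sequence (CCGGAAG or CAGGAAG) was in 18.3% (16.8 to 19.8) of the members and in 24.0% of all regions, and ranked 11 of 15 patterns. The members also ranked low for the GATA factors (AGATAA or TGATAA, 28.8% against 31.5% of all regions) and for the CTCF sequence CNAGGNGGC (5.77% against 7.51%). RUNX sites (TGTGGT or TGCGGT) were in 38.6% (36.8 to 40.5) of the members, an interval that holds the 37.9% of all regions, and in 35.7% of the regions in the SW rottlerin list alone. Sequences were matched on both strands, and a match is not a bound site.

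**Figure D4:**
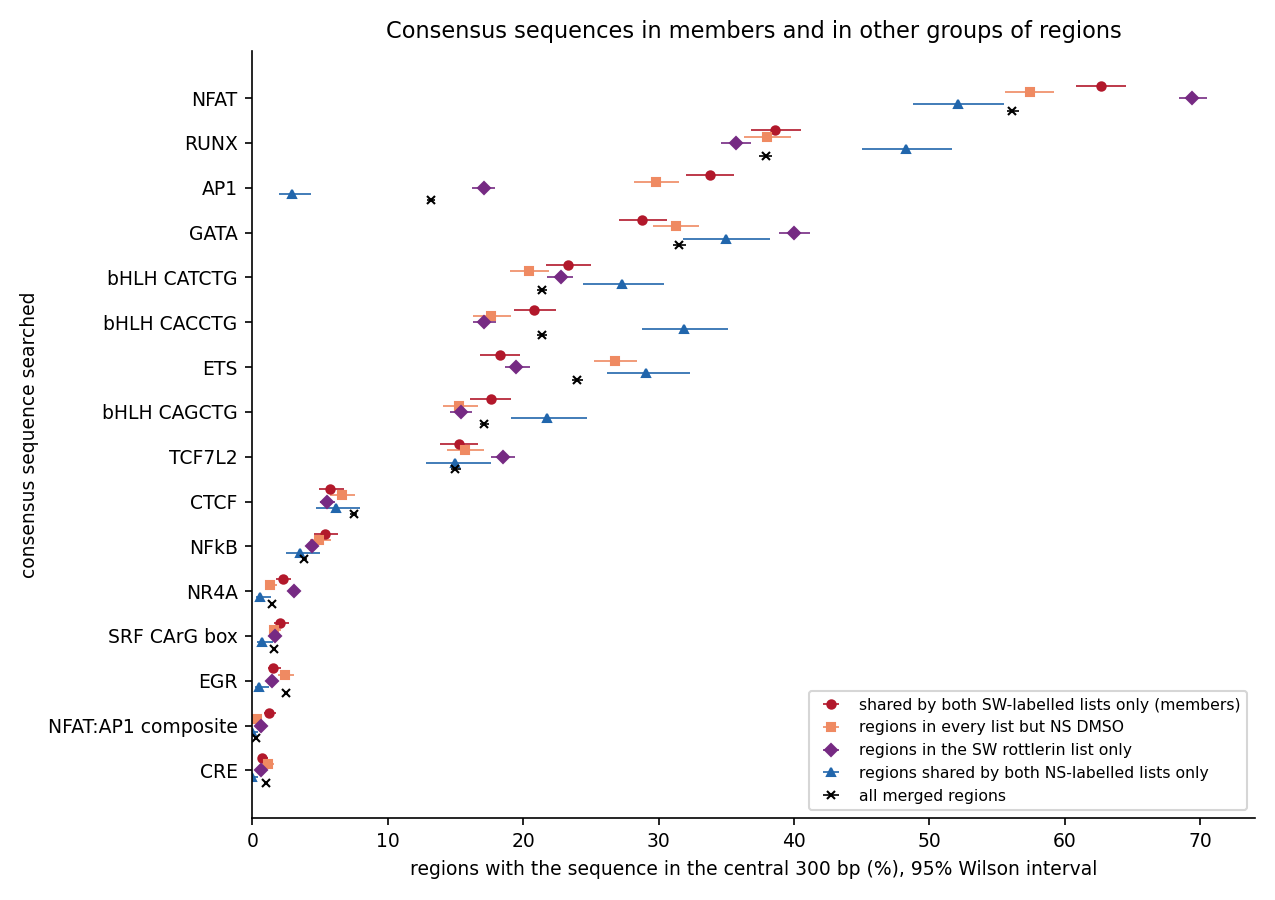
Share of regions holding each consensus sequence in the central 300 bp (x axis, percent, with 95% Wilson intervals) for the members, 3 other groups of regions and all merged regions (y axis, sequences ordered by their share in the members). For AP1 the members lie at 33.8% and all regions at 13.2%, while for ETS the members lie at 18.3%, below the 24.0% of all regions.

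A few members differed between the SW-labelled lists. The ratio of fold enrichment, SW rottlerin over SW DMSO, had a median of 1.05 in the members and 1.08 in all regions with a peak in both lists. It was 1.5 or more in 124 members (4.87%, against 3.75% of all such regions), and the enrichment was at least 1.5-fold higher in the SW DMSO list in 19 (0.746%, against 0.344%). After division by the median ratio of all such regions, the numbers were 57 and 48, so the excess towards the SW rottlerin list was lost on that scale. No spread between replicates is known for these ratios.

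The 124 members held NFAT and GATA sequences more often than the members within 1.5-fold. Of the 124, 77.4% (69.3 to 83.9) held an NFAT sequence and 46.8% (38.2 to 55.5) a GATA sequence, against 62.0% and 27.8% of the members within 1.5-fold. AP1 sites were in 25.0% (18.2 to 33.3), against 34.0%. In the 19 members higher in the SW DMSO list the shares were 47.4% for NFAT, 36.8% for GATA and 57.9% for AP1, with wide intervals. With the rescaled ratio, the 57 members higher in the SW rottlerin list, all of which are among the 124 by construction, had shares of 80.7% for NFAT, 50.9% for GATA and 19.3% for AP1, and the 48 higher in the SW DMSO list had 54.2%, 25.0% and 41.7%.

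The strongest members lay near genes of varied function. The 12 with the highest lower score were nearest to SLC15A1, AHI1, ALDH1A2, SCYGR1, KRBOX4, PARP16, PARD3, ABTB3, CIBAR2, DUSP5, BICDL1 and AOC1. Of these, 10 were intronic or intergenic and 5 held an AP1 site. The member near ALDH1A2, which makes retinoic acid, had scores of 141 and 135. The one near DUSP5, an inducible nuclear phosphatase of ERK, had scores of 182 and 118 and was stronger in the SW DMSO list. It lay 26.4 kb after the start of DUSP5 and held an AP1, an NF-κB and 2 NFAT sequences. The intronic member of PARP16, an enzyme of the endoplasmic reticulum, had scores of 126 and 163.

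At promoters, 400 members (15.7%) had their mid-point within 1 kb of a protein-coding start, against 27.4% of all regions. Of these, 46.0% were island-like, against 66.8% of all regions so placed, and 20.5% held an AP1 site, against 5.44%. AP1 sites were thus more frequent in members at promoters too. Among the 8 with the highest lower score were those of PTPRF, STAMBP, ACVR1B, PMAIP1, POU2F2, SAMD10 and F3. The member at PTPRF, a receptor tyrosine phosphatase, had scores of 103 and 114 and an AP1 site, and lay 0.0810 kb before a start. The member at F3, the tissue factor that starts coagulation, had scores of 100 and 79, an AP1 site and its nearest NS-labelled peak 59654 bp away. The member at POU2F2, the lymphoid factor OCT2, had scores of 85 and 97 with an AP1 and an NF-κB sequence.

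Members were mostly scattered singly. The median distance to the next member was 212 kb, and 7.22% had another within 10 kb. Of 20136 protein-coding genes, 3474 (17.3%) had a member within 50 kb of a start, of which 2968 had 1 member and 18 had 4 or more. The 10 genes with most, ties at 4 being taken by the summed lower score, were SEMA7A, TMEM120B, TBC1D4 and COMMD6 with 5 each, and CYP11A1, RHOF, PCBP3, FRMD4B, AHDC1 and FGR with 4. Several of these are neighbours that share members: SEMA7A with CYP11A1, TMEM120B with RHOF, TBC1D4 with COMMD6, and AHDC1 with FGR. The groups were therefore fewer than the genes.

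The densest group lay between CYP11A1, the side-chain cleavage enzyme of steroid synthesis, and SEMA7A, a membrane semaphorin of lymphocytes. It held 4 members in 21.5 kb, at chr15:74667645-74689172, with lower scores of 55 to 77 and 1 AP1 site in all. Groups of 4 with gaps of at most 25 kb were found at 2 other places, in the RUNX1 gene (43.6 kb) and from AHDC1 to FGR (39.2 kb), and none held 5. RUNX1 encodes a core-binding factor of blood cells. Its members had lower scores of 14 to 72, and 2 of the 4 held an AP1 site. The limit of 25 kb for these groups was chosen after earlier results were known.

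The listed T cell genes more often had a member nearby than coding genes in general. The lists, which also hold lineage, survival and homing genes, were chosen with earlier results of these data known. Of 196 genes in 12 lists, 83 (42.3%, 35.6 to 49.3) had a member within 50 kb, against 17.3% of all coding genes. The listed genes also had more accessible regions of any kind, with a mean of 7.06 within 50 kb against 3.62 for all coding genes. Of the 1302 regions near the listed genes, 102 were members, or 7.83% (6.50 to 9.42), against 6.03% (5.78 to 6.29) of the regions near any coding gene, so the difference was small once counted per region. Glycolytic genes, taken for comparison, had a member in 6 of 19 (31.6%, 15.4 to 54.0), with a mean of 6.58 regions. That share was above those of the MAP kinase feedback and cytokine receptor lists. The median listed gene had no member.

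**Figure D5:**
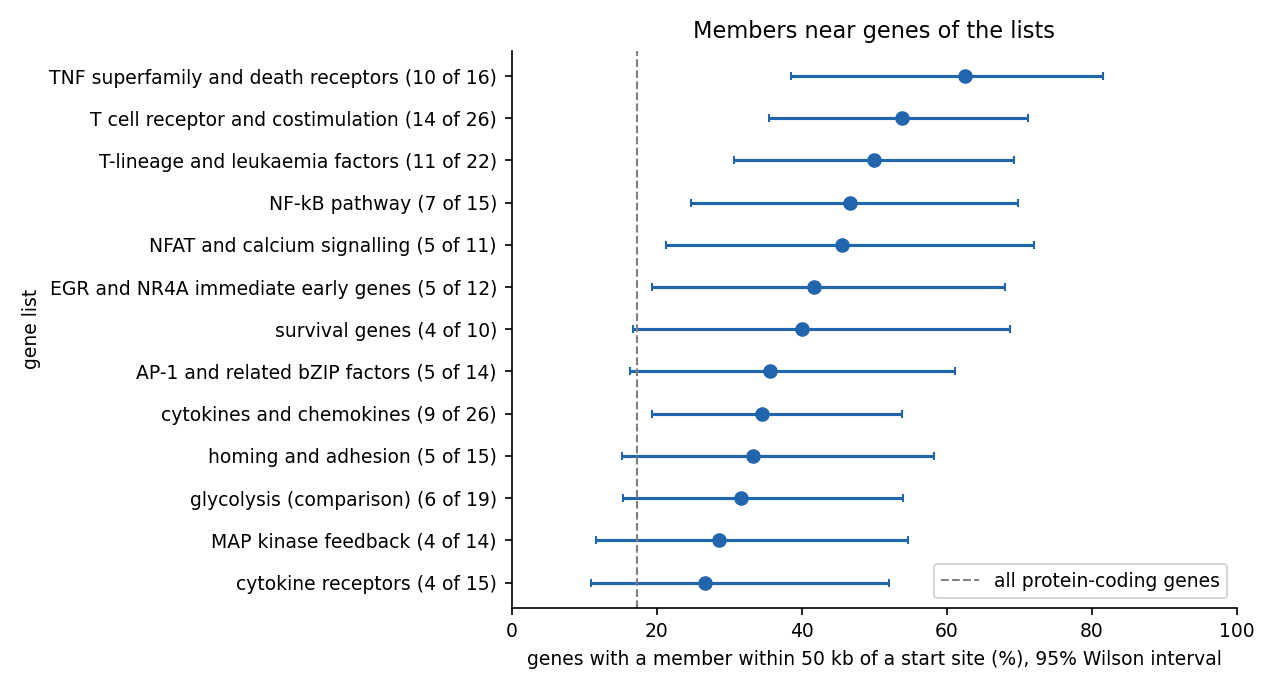
Share of the genes in each list with a member within 50 kb of a start site (x axis, percent, points with 95% Wilson intervals, numbers in brackets), with a dashed line for all protein-coding genes at 17.3%. TNF superfamily genes stand highest at 62.5% and cytokine receptors lowest at 26.7%, and the intervals of all lists overlap each other. The lists were chosen with earlier results of these data known.

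TNF superfamily genes and death receptors had the highest share, 10 of 16 (62.5%, 38.6 to 81.5). The costimulatory receptors TNFRSF18 (GITR) and TNFRSF4 (OX40) shared an intergenic member with scores of 53 and 62 and an AP1 site. CD40LG, the CD40 ligand that helps B cells, had 4 members within 50 kb, the strongest with scores of 65 and 47. FASLG, the death ligand, had 3 of 16 regions, and the strongest lay 0.0910 kb before its start with scores of 39 and 152. This FASLG member was among those far stronger in the SW rottlerin list, with a fold enrichment of 6.19 there.

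Of the genes of the T cell receptor and costimulation, 14 of 26 (53.8%, 35.5 to 71.2) had a member. The strongest was in an intron of CD4, the coreceptor, at chr12:6901158-6901569, with scores of 171 and 102. It lay 0.570 kb from an NS-labelled peak and held no AP1 site. The member of CD6, a surface glycoprotein that modulates T cell signals, had scores of 70 and 93. The tyrosine kinase gene LCK had a distant one at 45.6 kb with 66 and 74, which lay 35 bp before a start of another gene, IQCC. LCP2, the adaptor SLP-76, had one with 62 and 69 and an AP1 site. The members at CTLA4, an inhibitory receptor, and ICOS, a costimulatory one, are named after their values were seen. That of CTLA4 covered its start with scores of 21 and 52 and had no NS-labelled peak within 52.0 kb, and that of ICOS lay 2.41 kb before its start with 42 and 81.

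Cytokine and chemokine genes had a member in 9 of 26 (34.6%, 19.4 to 53.8). CSF2 and IL3, neighbouring growth factor genes of the myeloid lineage, shared one with scores of 65 and 82, which lay after both start sites. IL22, a cytokine that acts on epithelia, had one of 53 and 79 with an AP1 site, 24.3 kb before its start. CCL4, a chemokine, had its only region of any kind within 50 kb as a member, with 34 and 57. IL2, TNF, LTA, CXCL8, IL4 and IL13 had no member within 50 kb.

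Among the lists of transcription factors, AP1 and related genes had a member in 5 of 14 (35.7%, 16.3 to 61.2). That interval holds the 17.3% of all coding genes. Those with a member were ATF3, JUNB, BACH1, BACH2 and BATF3, while FOS, FOSB, JUN and JUND had none. The member 0.0930 kb before a start of BACH1, a repressor that competes at AP1-like sites, had scores of 75 and 43 and an AP1 site, and that of BACH2, a repressor that restrains T cell activation, held 3 AP1 sites with scores of 35 and 21. The members of ATF3 (scores of 51 and 55), JUNB (48 and 64) and BATF3 (20 and 44) held no AP1 site. Early response genes of the EGR and NR4A families had a member in 5 of 12 (41.7%, 19.3 to 68.0). NR4A3, an orphan receptor induced by T cell receptor signals, had a member 0.0280 kb before its start with scores of 31 and 68, and EGR1 had one with an AP1 site at 23.2 kb with 29 and 50.

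NFAT and calcium genes had a member in 5 of 11 (45.5%, 21.3 to 72.0). These were NFATC1, NFATC2, NFATC3 and NFAT5, with ORAI1, the calcium channel of the plasma membrane, while the calcineurin genes PPP3CA, PPP3CB and PPP3R1 had none. The NFAT5 member, intergenic, had scores of 90 and 86 and 2 AP1 sites. The NFATC2 member had scores of 34 and 58, that of NFATC3 41 and 25, and that of NFATC1 23 and 88. These NFAT genes thus had members of unlike strength.

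NF-κB genes had a member in 7 of 15 (46.7%, 24.8 to 69.9). TRAF1, an adaptor of TNF receptors, had the strongest with scores of 87 and 96, 2.45 kb before its start. The member of NFKB2, which encodes p100, lay at a start with 52 and 64 and held an NF-κB sequence and 3 NFAT sequences. BCL3, an atypical inhibitor of the IκB family, had one of 47 and 45, and TNFAIP3, the ubiquitin-editing inhibitor A20, had one of 32 and 35. Members were thus found at both an activator and an inhibitor of the pathway.

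MAP kinase feedback genes had a member in 4 of 14 (28.6%, 11.7 to 54.6), an interval that holds the 17.3% of all coding genes. Next to DUSP5, described above, DUSP2, a nuclear MAP kinase phosphatase of lymphocytes, had one of 90 and 71, and DUSP4 one at its promoter with 54 and 59. SPRED2, an inhibitor of RAS signals, had 3 members, the strongest in an intron with 53 and 70 and an AP1 site. DUSP1, DUSP6, SPRY1 and SPRY2 had none.

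Genes of the T lineage and of leukaemia had a member in 11 of 22 (50.0%, 30.7 to 69.3). RUNX3, a factor of CD8 T cells, had 2, the stronger with scores of 87 and 108. ERG, an ETS factor, had one of 49 and 39, IKZF1, the Ikaros gene, one of 41 and 39, both with an AP1 site, and TCF12, an E protein, one of 36 and 43. GATA3, MYB, BCL11B, NOTCH1 and TOX had none.

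Survival genes had a member in 4 of 10 (interval 16.8 to 68.7%), and that interval holds the 17.3% of all coding genes. PMAIP1, the BH3 protein NOXA, had 2, the stronger with scores of 85 and 94, and BBC3, the BH3 protein PUMA, had 3. The anti-apoptotic genes BCL2L1 and BCL2 had members with 57 and 127 and with 44 and 68. Members thus lay near both inducers and inhibitors of cell death.

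Cytokine receptor genes had the lowest share of the lists, 4 of 15 (26.7%, 10.9 to 52.0). The IL10RA member had scores of 65 and 53, and that of IFNGR1 had 71 and 42 with an AP1 site. IL2RA, the high-affinity chain of the IL2 receptor, had a member 0.104 kb before a start with 43 and 35. Homing and adhesion genes had a member in 5 of 15 (33.3%, 15.2 to 58.3), led by SELPLG, the selectin ligand PSGL-1, with 49 and 55. The intervals of both lists of genes hold the 17.3% of all coding genes. The member of CCR7, a lymph node homing receptor, had scores of 47 and 106 and an NF-κB sequence, and that of CD44, a hyaluronan receptor, had 36 and 34. The score of 106 at CCR7 was the highest in either of these lists of genes.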

How the data were processed

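FAIRE-seq peak lists of 4 libraries were used, 1 library per list. Per the study's methods, the authors used CutAdapt on adapters, Bowtie2 to map reads to Hg19, Picard to drop duplicates and MACS2 to call broad peaks against the total input, with versions not given in the sources used here. Columns of each deposited list hold the peak score, a ratio (fold enrichment over the input), and the p-value and q-value as −log10. Read counts and sequencing depth are not given in these lists, so a region without a peak was one not called at an unknown depth.

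Peaks on the autosomes, X and Y were merged where they overlapped or touched. A member took the highest peak of each list. The mid-point of a region took the first place that held it: UTR, other exon, intron, promoter (1 kb before a start), upstream (to 10 kb), else intergenic. Genes were those of GENCODE release 44 for GRCh37, and the central 300 bp were searched for 16 consensus sequences on both strands. Reference sequence came from GRCh37. Shares carry 95% Wilson intervals, which cover counting error only. With 1 library per list no test between lists was possible and no p-value is given. Merging and sequence search were checked on simulated data.

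Named were the 12 members with the highest lower score, the 10 genes with most members within 50 kb, the 2 to 4 genes of each list whose member had the highest lower score, and the 8 composite and 8 promoter members with the highest lower score. Of the latter, 1 is not reported here. Other genes are marked as named after their values were seen, or are listed genes given as having no member within 50 kb. The members, gene lists and sequences were chosen with earlier results of these data known. Software was samtools 1.23.1 and Python 3.11.15, with its packages pandas 2.3.3, matplotlib 3.10.9, pysam 0.24.0, numpy 2.4.6 and, for intervals, scipy 1.17.1.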

Additional observations from a re-analysis of the deposited data

How the results depend on the processing

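The number of members lay between 1721 (the same number of highest-scoring peaks in every list) and 2547 under 5 alternatives. Of 50 alternative values, 27 stayed within the interval of the value reported (counts, within 1.5 times), 23 did not and none could reverse a test, since none was made. With promoters placed before other groups, 71.4% of the members were intronic or intergenic (61.4% of all regions). In the higher-scoring members, those at or above the median lower score, the AP1 share was 37.0% and the island-like share 11.7%. The central 200 bp and 500 bp gave AP1 shares of 29.8% and 38.2% (all regions 10.8% and 16.7%), NFAT shares of 50.2% and 77.0%, and ETS shares of 13.5% and 25.4%. Settings chosen after seeing the data were any base in the centre of the AP1 sequence, with 40.7% (all regions 17.9%), and a longer NFAT sequence (TGGAAAA or AGGAAAA), with 27.7% (all regions 21.2%). Coding genes with a member were 11.1% within 25 kb, 27.2% within 100 kb, 12.7% with equal numbers of peaks, 16.3% without members that have an NS-labelled peak within 1 kb and 10.5% with the higher-scoring members. The listed T cell genes stood at 31.6%, 56.1%, 33.7% and 22.4% in these settings but that of 1 kb, in the same order. Members past 1.5-fold between the SW-labelled lists numbered 143, with 633 past a lower limit tried, 7 past 2-fold and 49 past 1.5-fold among the higher-scoring members. Windows, distances and fold limits move these values by construction, as does a smaller number of members for the shares of genes, while the cause of the higher AP1 and island-like shares in the higher-scoring members was not tested. No paired analysis was possible because each list has 1 library. Depth, unknown here, limits every statement on the absence of a peak.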

Other observations

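The share of regions that were members differed somewhat between chromosomes. Among the autosomes and X, this share ran from 5.04% on chromosome 14 and 5.22% on chromosome 5 to 7.64% on chromosome 9 and 8.20% on chromosome 21, where 45 of 549 regions met the rule. The group in RUNX1 lies on chromosome 21, as do the 4 members within 50 kb of a start of PCBP3, which encodes an RNA-binding protein. These shares are given as values, with no test.

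Pairs of sequences were also counted in the central 300 bp of the members. AP1 and RUNX sequences were found together in 12.8% (11.6 to 14.2) of the members and in 5.10% of all regions, and AP1 with NF-κB in 1.49% and 0.435%. A RUNX sequence was in 37.9% (34.7 to 41.2) of the members with an AP1 site and in 39.0% (36.7 to 41.4) of those without. ETS sequences were in 15.7% (13.4 to 18.3) of the members with an AP1 site and in 19.6% (17.7 to 21.5) of those without, intervals that overlap.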
